A study of Mus musculus with 2 samples.

Results

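Among the accessible sites that both cortex libraries shared, 742 had an above-median signal in each library and yet held no footprint in either. They were chosen by the measurements themselves: peaks of the larger deposited list of each library were merged where they overlapped by 1 bp or more, merged sites with a peak in both libraries on chromosomes 1 to 19 were kept, and of those the sites whose peak signal exceeded the library's own median in both libraries and which overlapped no row of either footprint list. The merge gave 154220 sites, of which 78595 were shared on chromosomes 1 to 19 and 48267 were strong in this sense. The sites without a footprint were 1.54% of the strong sites, and the other 47525 strong sites, which held at least 1 footprint, are the sites they are set against. With the smaller deposited peak lists in place of the larger ones the count was 152, with the upper quartile of the signal as the threshold it was 65, and with 1 library alone deciding signal and footprints it was 2447 for replicate 1 and 2200 for replicate 2.

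The data were 2 DNase-seq libraries of left cerebral cortex tissue from female B6CASTF1/J mice aged 2 months, which are F1 hybrids of C57BL/6J and CAST/EiJ. Both libraries belong to 1 group with no treatment and no second genotype. The labels number the animals apart but list 1 donor entry for both, so the spread between the 2 libraries may be partly technical. Peak signal came in whole steps, and if 1 step is 1 cut the libraries held about 206 M and 208 M cuts. The larger lists held 128323 peaks in replicate 1 and 119651 in replicate 2, and the footprint lists 340109 and 284674 rows with a median width of 9 bp. The tissue is bulk, so a site open in few cells and a site partly open in many cannot be told apart.

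In DNase-seq, the nuclease cuts DNA where nucleosomes are loosened or displaced, so a dense cluster of cuts marks an accessible site. A footprint is a short stretch within such a site where cuts are fewer than the surrounding sequence leads one to expect, usually because a bound protein shields the DNA. Promoters and enhancers commonly hold several footprints. Factors that leave the DNA within seconds can leave a shallow trace or none, and calling a footprint also needs enough cuts.

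Because signal and footprints defined the members, their above-median signal and lack of footprints are no finding. Their low signal among strong sites was not set by the threshold. It is a description only, since calling a footprint also needs enough cuts. With 1 group there is no contrast between conditions, and sites of the same libraries are not replicates, so no test was run: each value is a description, set beside the same value in strong sites with a footprint and, where signal matters, in such sites of like signal.

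The sequences below show what kind of DNA carried a strong peak without a footprint. They are the plus strand of GRCm38.p6, the build whose coordinates the mm10 files share, and each has the highest mean signal in its annotation class among members of at most 300 bp that have at most 30 annotated UTR bases and hold no 31-base word found elsewhere in the genome. Sites of 1 chromosome were left out, among them one near Pcdh1 with a higher mean signal than the intergenic site shown. Capitals mark CpG dinucleotides, the methylation targets that cluster in CpG islands. The first lies over the start of Lipt2, the second in an exon of Trib2, the third in an intron of Fam53b and the fourth between genes near Rtn4r.
Lipt2 promoter, chr7:100159261-100159420: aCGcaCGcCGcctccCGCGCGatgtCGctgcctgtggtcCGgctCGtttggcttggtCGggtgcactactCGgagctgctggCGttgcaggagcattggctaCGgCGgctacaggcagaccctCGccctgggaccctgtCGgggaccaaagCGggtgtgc
Trib2 exon, chr12:15815221-15815520: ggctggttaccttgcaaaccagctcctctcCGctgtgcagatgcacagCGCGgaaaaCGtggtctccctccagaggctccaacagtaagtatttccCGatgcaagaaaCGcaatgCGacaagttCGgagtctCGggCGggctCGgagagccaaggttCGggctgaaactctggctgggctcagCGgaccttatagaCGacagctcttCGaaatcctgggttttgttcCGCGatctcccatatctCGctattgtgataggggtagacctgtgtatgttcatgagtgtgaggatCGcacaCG
Fam53b intron, chr7:132810401-132810680: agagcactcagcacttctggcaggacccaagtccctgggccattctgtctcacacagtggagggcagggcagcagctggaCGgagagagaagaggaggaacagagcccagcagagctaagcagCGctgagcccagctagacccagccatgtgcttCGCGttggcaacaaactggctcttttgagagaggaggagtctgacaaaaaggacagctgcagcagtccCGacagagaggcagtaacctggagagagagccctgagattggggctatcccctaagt
near Rtn4r, chr16:18154861-18155139: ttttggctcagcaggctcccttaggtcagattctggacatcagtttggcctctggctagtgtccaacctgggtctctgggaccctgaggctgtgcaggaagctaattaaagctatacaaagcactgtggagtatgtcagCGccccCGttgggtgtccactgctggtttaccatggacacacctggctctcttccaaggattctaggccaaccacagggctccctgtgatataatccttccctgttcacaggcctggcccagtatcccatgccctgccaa
The Lipt2 site held 17 CpGs in 160 bp and had a GC content of 68.8%, and the Trib2 site held 20 in 300 bp at 55.0%. The Fam53b site held 5 in 280 bp and the site near Rtn4r 2 in 279 bp. The intronic and intergenic sites thus carried far fewer CpGs than those at Lipt2 and Trib2.

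The members with the largest share of repeated words, within the same limits of width, UTR and chromosome, are shown next, since repeated DNA is where short reads are hardest to place. Capitals again mark CpG. The first lies between genes, 7068 bp downstream of the start of Gm7760, and the second 93 bp downstream of the start of the zinc finger gene Zfp959.
near Gm7760, chr8:19704541-19704733: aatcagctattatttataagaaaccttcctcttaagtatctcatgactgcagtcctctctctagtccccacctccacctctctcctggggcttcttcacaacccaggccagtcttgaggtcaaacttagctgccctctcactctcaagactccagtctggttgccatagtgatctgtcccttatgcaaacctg
Zfp959 promoter, chr17:55892441-55892680: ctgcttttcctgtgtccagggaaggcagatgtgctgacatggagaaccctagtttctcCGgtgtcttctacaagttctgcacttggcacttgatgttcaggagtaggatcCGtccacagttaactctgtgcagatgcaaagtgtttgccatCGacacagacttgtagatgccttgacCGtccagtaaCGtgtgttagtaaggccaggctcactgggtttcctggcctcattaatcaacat
In the first, 80.4% of the 31-base words occurred elsewhere in the genome, and in the second 76.2%.

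A pair of strong sites with footprints is printed for contrast, with footprinted bases of either library in capitals. The first is, within those limits and without a repeated word, the one with the most footprints, 1771 bp upstream of the start of Id2, an inhibitor of bHLH transcription factors. The second is the stronger neighbour of the Lipt2 site, 100 bp downstream of it.
upstream of Id2, chr12:25098761-25099060: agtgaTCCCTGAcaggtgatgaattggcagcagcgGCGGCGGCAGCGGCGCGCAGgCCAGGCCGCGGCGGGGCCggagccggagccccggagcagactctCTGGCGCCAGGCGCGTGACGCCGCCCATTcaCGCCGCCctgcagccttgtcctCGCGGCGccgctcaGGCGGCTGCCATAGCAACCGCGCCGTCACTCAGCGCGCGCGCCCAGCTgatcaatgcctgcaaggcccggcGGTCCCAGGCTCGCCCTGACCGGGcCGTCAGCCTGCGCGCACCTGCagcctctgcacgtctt
next to Lipt2, chr7:100159521-100159820: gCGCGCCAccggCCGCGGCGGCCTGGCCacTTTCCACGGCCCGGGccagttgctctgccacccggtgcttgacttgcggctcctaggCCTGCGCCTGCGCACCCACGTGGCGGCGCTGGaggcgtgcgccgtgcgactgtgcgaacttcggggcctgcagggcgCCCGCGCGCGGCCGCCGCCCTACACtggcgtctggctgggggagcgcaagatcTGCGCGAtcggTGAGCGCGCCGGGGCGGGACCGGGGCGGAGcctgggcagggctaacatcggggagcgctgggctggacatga
The Id2 site held 13 footprints in replicate 1 and 8 in replicate 2, covering 181 of its 300 bases. The site next to Lipt2 held 6 and 5, covering 132 of 300 bases. Its signal was 3.86 in replicate 1 and 3.62 in replicate 2, against 2.17 and 2.18 in the Lipt2 site without a footprint.

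Although strong by the rule, the members were not among the strongest sites of the cortex. Their signal in replicate 1 had a lowest value of 0.557, a median of 0.896 and a highest value of 2.20, and in replicate 2 a lowest of 0.605, a median of 0.797 and a highest of 2.18. Strong sites with a footprint had medians of 1.24 and 1.34 and reached 62.9 and 70.0. Only 10 members had a mean signal over 1.5 and 2 a mean over 2. The strong sites were divided by mean signal into 4 bands of nearly equal number, called signal bands 1 to 4 from the weakest. No footprint was found in 405 of 12069 sites of band 1 (3.36%), 293 of 12065 of band 2 (2.43%), 44 of 12066 of band 3 (0.365%) and 0 of 12067 of band 4, which began at a mean signal of 2.275. Over all shared sites, strong or not, in 10 bins of nearly equal number, the share without a footprint was 15.3% in the weakest bin, stayed between 3.27% and 4.60% from bin 2 to bin 6, and was 0.0509% in bin 9 and 0 in bin 10.

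**Figure D1:**
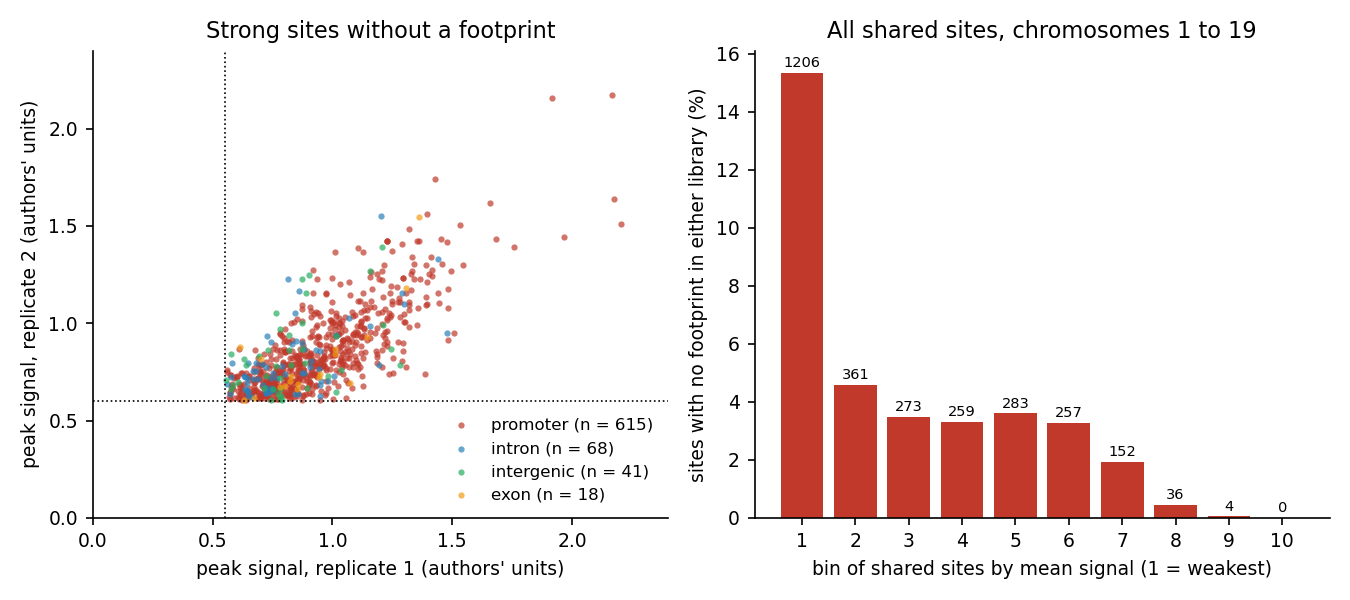
Left, peak signal of each of the 742 members in replicate 1 (x axis) and replicate 2 (y axis), coloured by annotation class, with dotted lines at the medians of 0.5522 and 0.6003 that the rule used. Right, percent of shared sites with no footprint in either library in 10 bins of mean signal, with the number of such sites above each bar; the weakest bin stands at 15.3% and the strongest at 0.

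The members highest in signal all lay at gene starts. Lipt2, which encodes a mitochondrial lipoyl transferase, had the member with the highest mean signal, described above. At Ruvbl2, an ATPase of the INO80 and TIP60 chromatin complexes, the site chr7:45434201-45434540 lay 94 bp upstream of the start with a signal of 1.92 in replicate 1 and 2.16 in replicate 2. Its strongest neighbour, 80 bp away, had 8.09 and 10.3 and held 9 footprints.

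The third in order, chr12:3427381-3427820, lay 590 bp upstream of the start of 1110002L01Rik and 689 bp downstream of the start of Asxl2, a Polycomb-associated gene, with 2.18 in replicate 1 and 1.64 in replicate 2. Fam173b, which encodes a mitochondrial lysine methyltransferase, had 2.20 and 1.51 at chr15:31602021-31602380, 83 bp downstream of its start. The zinc finger gene Zfp407 followed with 1.97 and 1.44. In each of these 3 sites replicate 1 was the higher, while in the Lipt2 site both libraries gave nearly the same value.

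Kat6b, a histone acetyltransferase, had 1.66 in replicate 1 and 1.62 in replicate 2 at chr14:21499661-21500080, 17 bp downstream of its start. Crlf2, a receptor chain for the cytokine TSLP, had 1.43 and 1.74, and Appl1, an endosomal adaptor, had 1.76 and 1.39. The retinoid X receptor gene Rxrb had 1.68 and 1.43. All 10 members with a mean signal over 1.5 had a stronger shared site within 1 kb, with a mean signal from 3.74 next to Lipt2 to 9.20 next to Ruvbl2 and with 9 to 29 footprints over both libraries.

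The absence of footprints ended soon beyond the members' edges. The nearest footprint of either library lay a median of 168 bp from the edge, with quartiles of 99 and 253 bp, and 191 of the 742 members (25.7%) had one within 100 bp. For 25 members it lay more than 1 kb away. Measured from the site centres, footprint density was at or near 0 in the middle, as the rule makes it, and rose on both sides to a broad maximum: between 560 and 580 bp towards higher coordinates there were 17.8 footprints per 100 members and 20 bp in replicate 1 and 13.1 in replicate 2. At 540 to 560 bp there were 17.3 and 14.2 around members, against 2.83 and 2.12 around footprinted sites of signal bands 1 and 2. At that distance members were thus richer in footprints than footprinted sites of like signal, in both libraries. Nearer in, partly as the rule makes it, the order was opposite. At 180 to 200 bp there were 0.809 and 0.270 around members, against 4.60 and 3.44. These sets were alike in signal but not in place, since members lay more often at promoters, and the part of place was not tested.

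**Figure D2:**
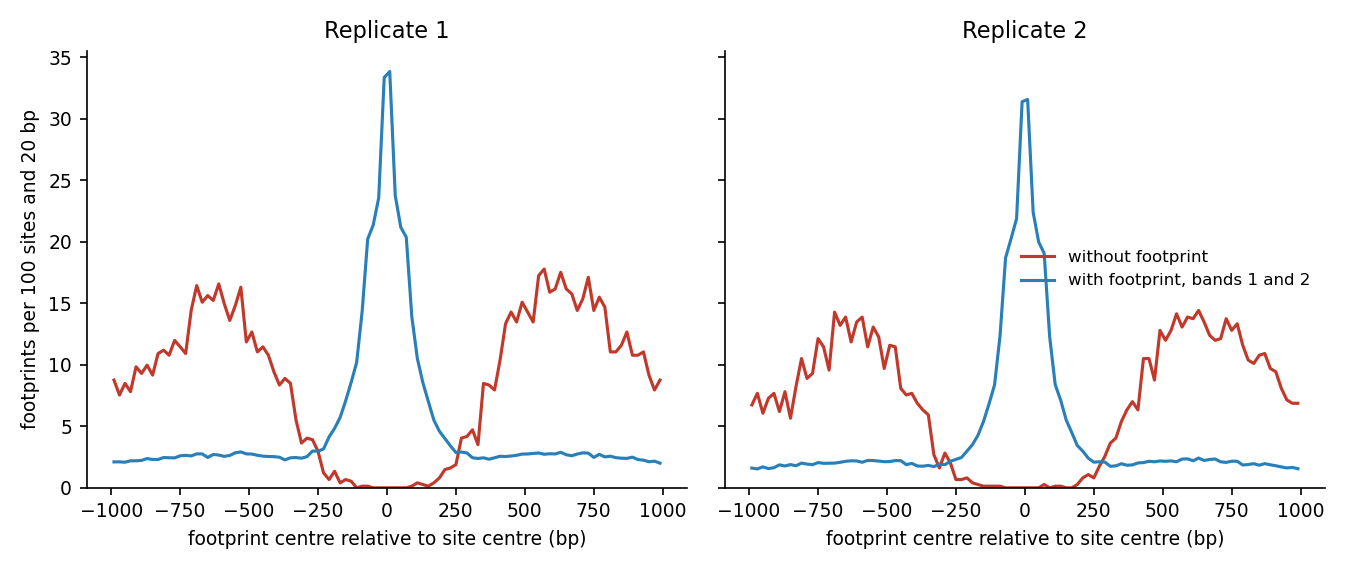
Number of footprints per 100 sites and 20 bp (y axis) by distance of the footprint's centre from the site's centre in bp (x axis), in each library, for members (red) and for strong sites with a footprint in signal bands 1 and 2 (blue). Members have a gap in the middle and shoulders on both sides that reach 17.8 footprints in replicate 1, and the footprinted sites have a single central peak of 33.8.

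Nearly every member had a stronger site beside it. A shared site with a higher mean signal lay within 1 kb of 703 of the 742 members (94.7%), against 16.6% of strong sites with a footprint. Within signal band 1 the shares were 91.9% and 21.9%, in band 2 98.0% and 21.2%, and in band 3 100% and 16.3%. Where there was such a neighbour, its mean signal was a median of 4.32 times that of the member, against 1.81 times for footprinted sites. The ratio of 4.32 split into 3.87 in replicate 1 and 4.89 in replicate 2. All 703 neighbours held footprints, a median of 13 over both libraries. The edge of the nearest other peak of either library lay a median of 180 bp away for members and 660 bp for footprinted sites.

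Seen from the other side, a stronger neighbour went with a missing footprint in steps. Of the 8594 strong sites with a stronger shared site within 1 kb, 8.18% had no footprint, against 0.0983% of the 39673 without one. The share was 0.838% where the neighbour had up to 2 times the signal, 6.09% from 2 to 3 times, 18.8% from 3 to 5 times and 40.9% beyond 5 times. In signal band 1 alone the same steps gave 1.43%, 9.26%, 23.4% and 41.0%, in the same order. By distance to the strongest such neighbour, the share was 5.27% within 100 bp, 11.4% from there to 200 bp, 12.6% to 400 bp and 5.75% to 1000 bp. Why a strong neighbour and a missing footprint go together was not tested.

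**Figure D3:**
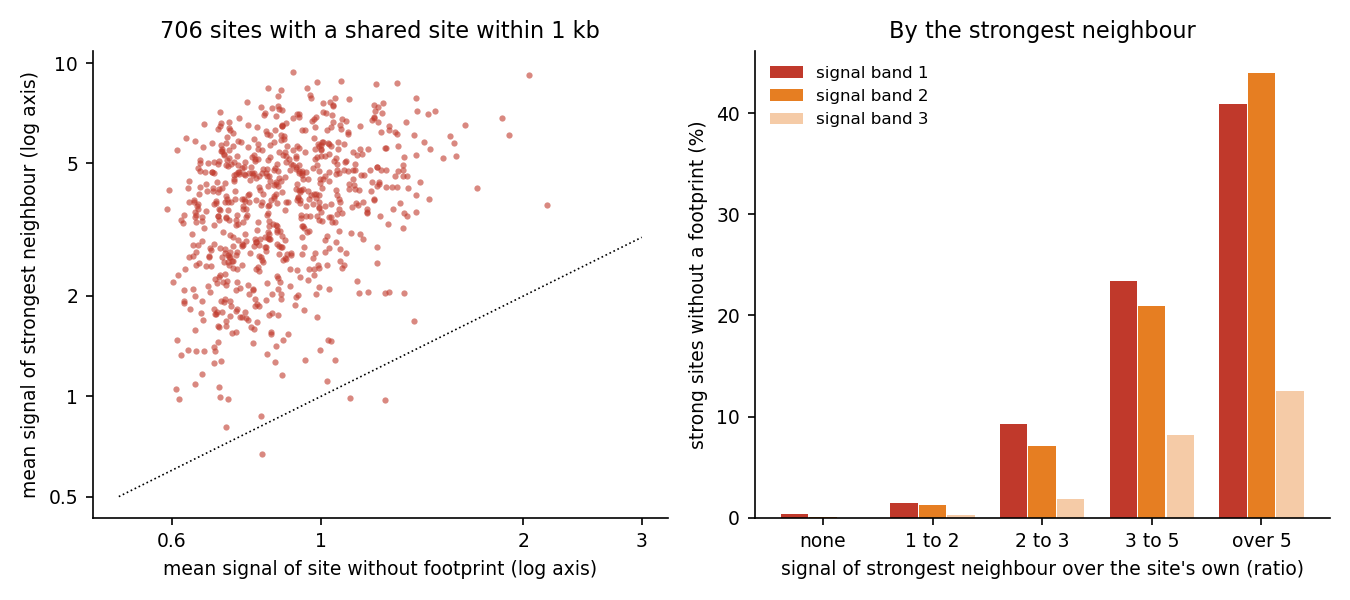
Left, mean signal of each member with a shared site within 1 kb (x axis, log scale) against that of the strongest such site (y axis, log scale), with equality as a dotted line; 703 of the 706 points lie above it. Right, percent of strong sites without a footprint (y axis) by the ratio of the strongest neighbour's signal to the site's own (x axis), in signal bands 1 to 3; the bars reach 41.0%, 43.97% and 12.5% beyond 5 times.

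The stretch between a member and its stronger neighbour was described from the deposited cut-rate table, which lists the false discovery rate (FDR) of the local cut rate wherever it is below 0.05. Of the 703 members with a stronger neighbour, 696 were separated from it by 20 bp or more, and the median gap was 260 bp. In replicate 1 the lowest FDR had a median of 8.96e-08 within these members and 3.09e-36 within the neighbours, while the highest FDR in the gap between them had a median of 2.29e-05. In replicate 2 the same medians were 6.71e-07, 2.36e-43 and 0.000562. The gap was itself listed below an FDR of 0.05 throughout in 674 of the 696 pairs (96.8%) in replicate 1 and 660 (94.8%) in replicate 2, so in nearly all pairs the cut rate stayed raised from member to neighbour. The gap's highest FDR was more than 100 times the member's lowest in 44.3% of pairs in replicate 1 and 61.4% in replicate 2. Since this sets the weakest point of the gap against the strongest of the member, it is a description of the profile and no test of a dip. The whole of the site was listed below an FDR of 0.05 in 81.3% of members and 81.6% of footprinted sites in replicate 1, and in 71.0% and 76.3% in replicate 2.

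Sites with few footprints lay between members and the rest. A stronger shared site within 1 kb was present for 94.7% of members, 71.2% of the 744 strong sites with exactly 1 footprint over both libraries, 39.6% of the 1780 with 2, 22.8% of those with 3 or 4, 13.9% of those with 5 to 9 and 11.8% of those with 10 or more. Each library taken alone left more sites bare: 1690 strong sites had no footprint in replicate 1 (3.50%) and 2072 in replicate 2 (4.29%). The members were 43.9% and 35.8% of those sites.

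Most members sat at promoters, and mostly on the gene side of the start. The site centre was within 1 kb of an annotated transcription start for 615 of the 742 members (82.9%), against 42.3% of strong sites with a footprint. Introns held 68 members (9.16%, against 28.9%), intergenic sequence 41 (5.53%, against 23.9%) and other exons 18 (2.43%, against 4.96%). With a promoter window of 500 bp the share of members was 53.1%, against 35.7% of footprinted sites. In signal band 1 78.3% of members and 22.8% of footprinted sites were promoters, and there 10.7% of all promoter sites had no footprint, against 1.02% of intronic and 0.769% of intergenic ones.

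**Figure D4:**
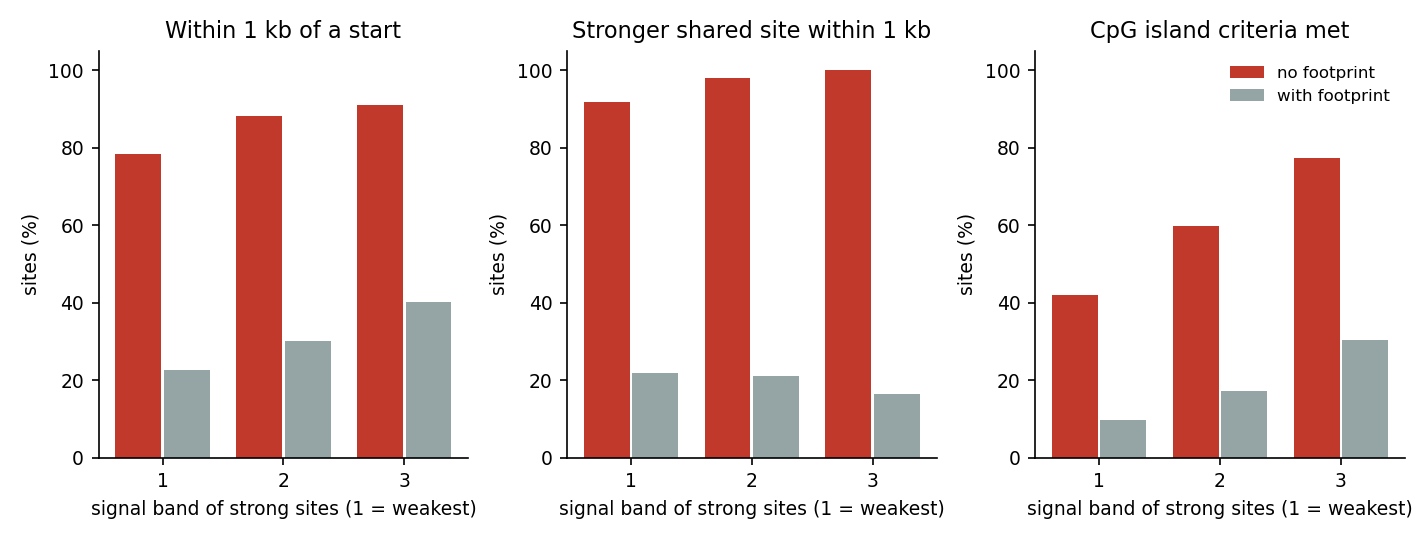
Percent of sites (y axis) in members (red) and in strong sites with a footprint (grey) by signal band (x axis), for promoters (left), a stronger shared site within 1 kb (middle) and CpG island criteria (right). Members stand higher in all 9 pairs, with 78.3% against 22.8% for promoters in band 1; band 4 has no member.

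Of the 586 members within 1 kb of a protein-coding start, 75.8% were centred downstream of it, with a median position of 345 bp downstream. Of the 18264 footprinted sites in that window 43.3% were downstream, and their median position was 11 bp upstream. Footprinted promoter sites of signal band 1 stood between these, with 58.5% downstream and a median of 53 bp downstream. The bin with the most members was 400 to 500 bp downstream, with 82 of 586 (13.99%), while the 100 bp before the start held 35 (5.97%) and, among footprinted sites, 35.0%. Among the 581 of these members that had a stronger neighbour, the neighbour lay upstream of the member in the gene's direction in 483 (83.1%) and was centred nearer to the start in 357 (61.4%).

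**Figure D5:**
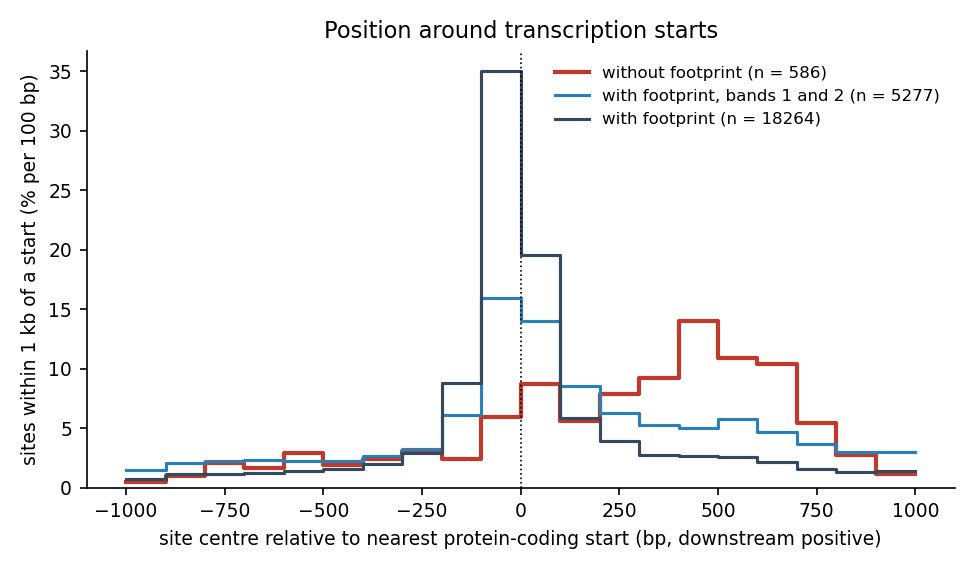
Distance of site centres from the nearest protein-coding start in bp, downstream positive (x axis), as percent of the sites within 1 kb in bins of 100 bp (y axis), for members (red), footprinted sites of signal bands 1 and 2 (light blue) and all footprinted sites (dark blue). Members are spread with a maximum of 13.99% at 400 to 500 bp downstream, and footprinted sites have theirs, 35.0%, in the 100 bp before the start.

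The 615 promoter members belonged to 605 genes. The nearest start was protein-coding for 552 of them (89.8%, against 87.0% of footprinted promoter sites) and of a long noncoding type for 47 (7.64%, against 9.32%). More than 1 member was assigned to 9 genes. Klf7, a Krüppel-like transcription factor with roles in neuronal development, had 3 that followed each other without a gap: chr1:64120471-64120800 with a signal of 0.833 in replicate 1 and 0.696 in replicate 2, chr1:64120801-64121160 with 0.974 and 1.15, and chr1:64121161-64121480 with 1.21 and 1.13. They lay 846, 501 and 161 bp downstream of the start, and the stronger site beside them had 3.26 and 4.07.

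The other 8 genes had 2 members each: Cdk13, a kinase of the transcribing RNA polymerase, Crlf2, the adaptor Grb2, the stress kinase gene Mapk14, the MYC antagonist Mnt, the neuronal calcium-binding protein gene Necab1, the phosphodiesterase gene Pde10a and the nuclear export receptor gene Xpo1. At Cdk13 the members had 1.36 and 1.42, 463 bp upstream of the start, and 1.28 and 1.13, 36 bp downstream of it. Sites of 1 gene share their stronger neighbour in several of these cases, so they are not independent.

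Among members in exons beyond the promoter window, Fosb, which encodes an AP-1 subunit induced by neuronal activity, had the highest mean signal: 1.36 in replicate 1 and 1.55 in replicate 2 at chr7:19308101-19308480, 1309 bp downstream of the start, beside a site with 4.72 and 6.32. Fam20c, a kinase of the secretory pathway, had 1.31 and 1.18 and had no stronger neighbour. The pseudokinase gene Trib2 had 1.14 and 0.927. Rusc1, Ptma, which encodes prothymosin alpha, and 4930570G19Rik had mean signals of 0.941, 0.926 and 0.884.

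In introns, the highest was a site of Gm15738 at chr16:13437521-13438100 with 1.44 in replicate 1 and 1.33 in replicate 2, next to a site with 6.92 and 8.77. Fam53b had 1.29 and 1.16, Ing1, a chromatin-binding PHD finger gene, had 1.48 and 0.951, and the zinc importer gene Slc39a10 had 1.30 and 1.10. The sites of Ing1 and Slc39a10 lay 1010 and 1105 bp downstream of a start, just outside the promoter window. 9330198N18Rik had 1.16 and 0.985, and Tcf20 had 1.07 and 1.03.

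Between genes, the highest was 9212 bp downstream of the start of Tex44, at chr1:86435161-86435920, with 1.21 in replicate 1 and 1.39 in replicate 2 and a neighbour of 5.67 and 6.57. Next came sites near Klf9, a glucocorticoid-inducible Krüppel-like factor, with 1.16 and 1.27, near Pllp, which encodes the myelin protein plasmolipin, with 1.21 and 0.989, and near the protocadherin gene Pcdh1 with 0.901 and 1.25. Sites near BC005537 had 1.25 and 0.869, and near Agbl5, a tubulin deglutamylase gene, 1.28 and 0.783. These 6 sites differed in which library was higher: replicate 2 at the sites near Tex44, Klf9 and Pcdh1, and replicate 1 at the other 3.

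The 39 members with no stronger shared site within 1 kb were of another make. Introns held 23 of them (59.0%), promoters 5, exons 5 and intergenic sequence 6. Their median width was 208 bp, their signal medians were 0.707 in replicate 1 and 0.725 in replicate 2, and their nearest footprint lay a median of 1820 bp away. Footprinted sites of signal band 1 with no stronger neighbour were likewise intronic in 45.6% and promoters in 15.9%. Some lay in genes of neurons. Mapt, which encodes the microtubule protein tau, had an intronic member with 0.862 in replicate 1 and 1.17 in replicate 2 at chr11:104302741-104302960. Kif5c, a neuronal kinesin gene, had an intronic member with 0.712 and 0.682. Both had no shared site at all within 1 kb, and they were named after their values were seen.

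Members were wide for their signal. The median width was 400 bp, against 260 bp in footprinted sites and 288 bp in footprinted sites of signal band 1. The share without a footprint was 0.203% among strong sites of 151 to 200 bp, 0.897% from 201 to 300 bp, 2.52% from 301 to 400 bp and 3.29% from 401 to 600 bp. Both ends of the width range broke this order. Of the 4161 strong sites wider than 600 bp, 100 had no footprint, a lower share than from 301 to 400 bp. The 514 strong sites of 150 bp or less had 4.09%, which rests on 21 members. The widest members lay at Epop, which encodes an elongin and Polycomb partner (1620 bp), at Tmem132a (1120 bp) and at the chromatin regulator gene Ankrd11 (1059 bp). At Epop the signal was 0.828 in replicate 1 and 0.730 in replicate 2, at Tmem132a 0.887 and 0.831 and at Ankrd11 1.28 and 1.11.

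In base composition the members resembled CpG islands more than weak footprinted sites did. The GC content of the central 150 bp had a median of 60.7% in members, 56.7% in footprinted sites and 53.3% in footprinted sites of signal band 1. There were 5.19 CpGs per 100 bp, against 2.89 and 2.00. A length of at least 200 bp with over 50% GC and an observed-to-expected CpG ratio over 0.6, the usual criteria of a CpG island, was met by 51.1% of members, 32.2% of footprinted sites and 9.70% of those in signal band 1. Part of this went with position: among promoter sites of signal band 1 the shares were 48.9% in members and 30.7% in footprinted sites. The length in these criteria is that of the site itself, and members were wider, so width enters the contrast too.

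Short words bound by known factor families were counted on both strands of the central 150 bp. The SP/KLF box GGGCGG, bound by zinc fingers of GC-rich promoters, was present in 27.8% of members, 23.8% of footprinted sites and 10.9% of those in signal band 1. At promoters of signal band 1 it was present in 28.1% of members and 21.5% of footprinted sites. Over promoters of all bands the order turned round, with 31.1% of members and 43.1% of footprinted sites. It also turned round when replicate 1 alone defined the sets, with 18.7% in sites without a footprint and 22.4% in those with one. The AP-1 word TGANTCA, bound by Fos and Jun proteins, was present in 3.64% of members, 6.36% of footprinted sites and 9.47% of those in signal band 1. That order turned round with the upper quartile as threshold (4.62% without a footprint and 4.21% with one) and with replicate 1 alone (6.42% and 6.38%). In a 300 bp window it was kept, with 6.33% of members, 11.1% of footprinted sites and 16.2% of those in signal band 1. At promoters of all bands TGANTCA was present in 2.44% of members and 2.92% of footprinted sites, and at those of signal band 1 in 2.21% and 5.54%. The word CAGATGG of neuronal bHLH factors was present in 4.72%, 6.72% and 8.70%. Over promoters of all bands its order turned round, with 3.74% of members and 2.80% of footprinted sites. At promoters of signal band 1 it did not, with 3.79% and 5.46%.

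The motif of CTCF, which anchors chromatin loops and leaves a deep footprint, had 0 matches in 742 members, which allows a share of up to 0.404%, against 8.30% of footprinted sites and 4.05% of those in signal band 1. At promoters it had 0 matches in 615 members, which allows up to 0.488%, against 2.42% of footprinted sites and 2.00% of those in signal band 1. In a 300 bp window 0.135% of members held one. Members were chosen for holding no footprint, so the low share of a motif with a deep footprint is partly set by the rule. The NRF1 motif was present in 0.404% of members, 2.72% of footprinted sites and 0.420% of those in signal band 1. The ETS word CCGGAAGT was present in 0.404%, 1.69% and 0.206%, and the CRE TGACGTCA in 0.270%, 1.16% and 0.334%. Members were thus below footprinted sites as a whole and nearer to those of like signal, but these shares rest on 3, 3 and 2 members. At promoters of signal band 1 each of these motifs was found in 1 of 317 members (0.316%). Footprinted sites there had 0.829% for NRF1, 0.226% for ETS and 0.414% for CRE. The GATA word AGATAAG was present in 1.48%, 0.724% and 0.917%, which is 11 members. In a 300 bp window it was present in 2.16%, 1.94% and 2.35%, so members were no longer the highest.

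The remaining motifs were rare. The CCAAT box AGCCAATC was present in 0.809% of members, 1.44% of footprinted sites and 0.549% of those in signal band 1, the TATA box TATAAAA in 0.674%, 0.892% and 0.977%, the MEF2 motif in 1.21%, 1.72% and 1.87%, the octamer ATGCAAAT in 0.404%, 0.692% and 0.875%, the EGR word GCGTGGGCG in 0.270%, 0.503% and 0.232%, and the YY1 word AAGATGGCG in 0.135%, 0.743% and 0.146%. The REST motif was found in 1 member, and those of NFI, RFX and the tRNA gene B box in none, against 0.0337%, 0.177% and 0.227% of footprinted sites. A count of 0 in 742 members allows up to 0.404%, which is above these shares, so it shows no lack of them. Motifs of 10 letters or more are given by name alone. An EGR word followed by G also holds the SP/KLF box. A word is a description of the sequence, and its absence from this window says nothing of the factor.

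Repeated sequence was rare among members. In 88.7% of them no 31-base word occurred elsewhere in the nuclear genome, against 90.9% of footprinted sites, and the median share of such words was 0 in both. Only 4 members had 50% or more of their words elsewhere: the sites near Gm7760 and at Zfp959 printed above, one at the promoter of Gm14326 with a signal of 0.707 in replicate 1 and 0.677 in replicate 2, and one in an intron of Sfi1, a centrosome gene, at chr11:3161464-3161680 with 1.20 and 1.55. No member overlapped a tRNA gene, which allows up to 0.404%, while 219 footprinted sites did (0.461%). Of the sites with 3 or 4 footprints, whose mean signal had a median of 0.902, 6 of 7641 did (0.0785%). The soft-masked share of the site had a median of 5.43% in members and 4.31% in footprinted sites, and a tandem run of 30 bp or more was present in 2.291% and 1.496%. In the sites with 3 or 4 footprints these values were 5.0% and 1.165%.

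Replicate 1 gave members a relatively higher signal than replicate 2. The log2 ratio of replicate 1 to replicate 2, centred on the median of all strong sites, had a median of 0.27 in members and 0.00 in footprinted sites, and it was above 0 in 84.8% of members and 49.5% of footprinted sites. In footprinted sites of signal band 1 the median was 0.07, and at promoters of that band 0.16. Replicate 1 also had more footprints in its list, and whether either fact bears on the choice of members was not tested.

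On the chromosomes the share of strong sites without a footprint ran from 0.941% on chromosome 6 to 2.06% on chromosome 1. No chromosome stood at 0, and the members were spread over all 19.

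Cell type genes had no member at their starts, where few strong sites lay. Over all genes, 615 of 20697 strong promoter sites were members (2.97%), so a count of 0 over the few strong sites of these lists is near that share. Excitatory neuron markers had a strong site at the start of 7 of 7 genes, inhibitory neuron markers of 5 of 7, astrocyte markers of 3 of 6, oligodendrocyte markers of 2 of 6, microglial markers of 1 of 6 and endothelial markers of 1 of 5, and none of these sites was a member. Markers of other tissues (Alb, Hnf4a, Myod1, Krt5 and Gata1) had no strong site in 5 of 5 genes. Strong sites were thus common at starts of neuronal markers and fewer at those of glial and vascular cells. Gata1 lies on chromosome X, which the rule leaves out.

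Immediate early genes, which neurons switch on within minutes of activity, had strong sites at the start of 16 of 16 genes, and 2 of these genes had a member, which over the list's strong sites is near the 2.97% of all strong promoter sites. At Jun, an AP-1 subunit, the site chr4:95051401-95051860 lay 591 bp downstream of the start with 1.41 in replicate 1 and 1.34 in replicate 2, beside a site with 5.68 and 6.53 that held 18 footprints. At Dusp1, a phosphatase of MAP kinases, the site chr17:26507401-26507840 lay 102 bp downstream of the start with 0.998 and 1.11, beside a site with 4.68 and 4.63 and 20 footprints. Fosb contributed its exonic member as well. Fos, Arc, Npas4 and Egr1 had 2 or 3 strong sites each at their starts, all with footprints.

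The signal threshold is a median, so sites lay close to it on both sides, and those nearest are named here. Just above it stood members at Rc3h1, an mRNA decay factor gene, with 0.949 in replicate 1 and 0.605 in replicate 2, at Epb41l2 with 0.639 and 0.605, and at Coro6 with 0.625 and 0.605. Just outside stood bare sites at Rrs1 with 0.6104 and 0.6003, at Ube2f with 0.7072 and 0.6003, and one far upstream of Slc39a10 with 0.552 and 0.826. In the library that decided, each differed from the threshold by 1 step of signal or less. Among the 30328 other shared sites, below the median in at least 1 library, 2089 (6.89%) had no footprint.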

How the data were processed

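Per the labels, each library's peaks, footprints and cut-rate FDR were made from its own alignments on mm10; neither the aligner nor the callers are named: not given in the sources used here. The peak lists deposited by the authors hold a signal per peak on a depth-normalized scale, in whole steps of 0.0048 in both libraries, so their depth was close. The footprint lists deposited by the authors hold an FDR of 0.01 in every row, as a fraction. The deposited cut-rate tables hold q-values (FDR) and list only those below 0.05.

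From these files, sites were merged, counted and annotated with Python 3.11.15, pandas 2.3.3, numba 0.67.0 and bedtools 2.31.1, on GRCm38.p6 (RefSeq) and GENCODE M21, and the steps were tested on simulated data. A site's signal in a library is its highest peak, and a gap runs between site edges. Classes were assigned in the order promoter (centre within 1 kb of a start), exon, intron, intergenic. Repeated words are 31-base words found more than once in the nuclear genome on either strand. Shares of 0 are given with the limit that 3 counts allow, which covers counting error only. Both libraries form 1 group, so no test was made.

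Sites named are the 10 with the highest mean signal, the 6 highest without repeated words in each class, the 3 widest, the 3 nearest the threshold on each side, and those at listed genes; others are said to be chosen after their values, and some named sites are not reported here. Printed sequences hold at most 30 annotated UTR bases, and none is from chromosome 18. The members and lists were chosen with earlier results of these data known. Alternatives were the smaller peak lists, a 50% overlap, the upper quartile, footprints widened by 20 bp, each library alone, and other windows.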

Additional observations from a re-analysis of the deposited data

How the results depend on the processing

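The values with the smaller peak lists were 152 sites (0.514% of strong sites), a median mean signal of 1.18, promoters 93.4%, GC 64.7%, AP-1 4.61%, SP/KLF 34.9%, soft-masked 4.41% and a stronger neighbour 98.7%. With the upper quartile as threshold they were 65 sites (0.255%), 1.32, promoters 89.2%, GC 66.7%, AP-1 4.62%, SP/KLF 35.4%, soft-masked 5.0% and a stronger neighbour 98.5%. With 1 library alone the count ran from 2200 to 2447 (4.27% to 4.50%), the median mean signal from 0.716 to 0.859, the width from 340 to 380 bp, promoters from 59.0% to 67.1%, GC from 56.7% to 59.7%, AP-1 from 5.95% to 6.42%, CTCF from 0.163% to 0.182%, SP/KLF from 18.7% to 24.4%, soft-masked from 5.0% to 5.61%, a stronger neighbour from 76.1% to 76.3% and the share downstream from 69.3% to 73.9%. A promoter window of 500 bp or 2.5 kb gave 53.1% or 90.4%. A 300 bp window gave AP-1 6.33%, CTCF 0.135% and SP/KLF 41.4%. A neighbour within 500 bp or 2 kb was found for 87.1% or 95.7%. By signal band, promoters were 90.9% in band 3, GC 63.3% in band 2 and 67.0% in band 3, AP-1 2.27% and SP/KLF 36.4% in band 3, and a stronger neighbour 91.9%, 98.0% and 100% in bands 1 to 3. The cause of these moves was not tested, beyond the fewer or more sites that each setting keeps.

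Members stayed on the same side of footprinted sites under all alternatives run for signal, width, promoters, GC, CTCF, soft-masked share, neighbours, the share downstream and the library ratio; AP-1 did so in 8 of 10 and SP/KLF in 9 of 10. The median of repeated words was 0 in both sets under all 7 of its alternatives. A 50% overlap and footprints widened by 20 bp left 721 and 727 sites. The results on neighbours and on the share downstream were not among those planned. They and their alternatives were added after seeing the data. No paired analysis was possible because both libraries belong to 1 group. The part of depth in the missing footprints was not tested, and 2 libraries limit what can be said of the spread between animals.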

Other observations

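The genes of the bromodomain proteins BRD2 and BRD3, which bind acetylated histones, each had a member at the start; they were chosen after their values were seen. Brd3 had a signal of 1.48 in replicate 1 and 1.08 in replicate 2, 485 bp upstream of its start, and Brd2 had 1.08 and 1.06, 8 bp downstream. Each had a stronger site within 1 kb, with mean signals of 3.65 for Brd3 and 6.51 for Brd2. A related pair, the transcription kinase genes Cdk12 and Cdk13, also had members, with 1.35 and 0.989 at Cdk12.

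A site with the highest signal among those with exactly 1 footprint, and thus just outside the members, lay 107 bp upstream of the start of Gm42418, at chr17:39846781-39846920. It had a signal of 62.9 in replicate 1 and 70.0 in replicate 2, held 1 footprint in replicate 1 and 0 in replicate 2, and 82.7% of its 31-base words occurred elsewhere in the genome. The next sites of that kind, near Gm49476 and at Tubb4b, had 1.92 and 2.24, and 1.71 and 2.10.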
